A study of Callithrix jacchus with 20 samples.

Results

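The data describe 39 genes of glycolysis, glucose uptake and the response to low oxygen in a marmoset model of early germ cell development. The genes were chosen by symbol for their function, and 38 of the 39 had a row among the 25102 genes of the count table. The glucose transporter SLC2A3 is not analysed here. All 38 passed the filter on low counts, which left 15797 genes for the tests.

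Poly(A) RNA was sequenced from 20 libraries of 10 conditions, with 2 biological replicates in each. All libraries came from the line DPZ_cjiPSC2, a single line of transgene-free induced pluripotent stem cells (cjiPSCs) that was reprogrammed from foetal fibroblasts of the common marmoset (Callithrix jacchus). The cjiPSCs were kept either in TESR, a commercial feeder-free medium, or in cjPSCM, an N2B27 medium with CHIR, A419259, IWR-1, vitamin C, LIF, TGFβ and FGF2. Precursors of mesendoderm (pre-ME) were made from both cultures within 24 h by 3 µM CHIR, which activates WNT signalling. ActA, a NODAL/activin receptor ligand, was added at 100 ng/ml or left out. For this step the cells were dissociated and replated from Geltrex onto vitronectin, in aRB27, an RPMI-based medium, with a ROCK inhibitor. Pre-ME of cjPSCM cultures were then grown as floating embryoid bodies (EBs) with 500 ng/ml BMP4, LIF, SCF and EGF, and on day 4 they were sorted into marmoset primordial germ cell-like cells (cjPGCLCs), positive for both sort markers, and somatic cells, negative for both. No sorted cells from TESR cultures were sequenced. All replicates are of 1 line, so the spread between them does not include differences between animals.

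Glycolysis breaks glucose down to pyruvate in a hexose phase and a triose phase, and pyruvate is either reduced to lactate by lactate dehydrogenase and exported, or admitted to mitochondria by pyruvate dehydrogenase, which PDK kinases inhibit. Several steps are served by isozymes, such as HK1 and HK2 or PFKL, PFKM and PFKP, which differ in tissue and regulation. When oxygen is low, the prolyl hydroxylases EGLN1 and EGLN3 no longer mark HIF1A and EPAS1 (HIF-2α) for destruction, and these factors switch on glycolytic genes together with targets such as VEGFA, ADM and NDRG1. HIF proteins are controlled mainly after translation, so mRNA levels do not report their activity, and primed pluripotent stem cells are known for a high rate of glycolysis.

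Levels are given as the authors' counts normalised by size factors, one value for each replicate, and are compared for one gene between conditions only, since they were not divided by transcript length. Fold changes and adjusted p-values come from edgeR's quasi-likelihood test on the raw counts of all genes, and a gene was called at an adjusted p under 0.05. Total counts on genes were 4784964 to 22067099 per library. The share of reads outside annotated genes was 10.6% and 13.3% in cjiPSCs in TESR and 12.2% and 19.3% in cjPSCM (replicates 1 and 2). It was 17.2% to 23.2% in the other libraries. Its part in the differences between the media and between cjiPSCs and pre-ME was not tested. Replicates of cjiPSCs in cjPSCM differed most, with an SD of 0.885 over genes of the log2 difference between them, against 0.279 to 0.571 in the other 9 conditions. The sort could be seen in its marker genes: CXCR4, ITGA6 and EPCAM summed to 2953 to 5249 normalised counts in cjPGCLCs and 349.6 to 394 or 374 to 434 in somatic cells without and with ActA. Of the germ cell list, SOX17, TFAP2C, PRDM1 and NANOS3 but not KIT were called higher in cjPGCLCs than in somatic cells under either protocol, but the somatic genes HAND1, GATA6, PDGFRA and COL3A1 were abundant in both sorted fractions, with sums of 10888 to 16494 in cjPGCLCs and 10504 to 15815 in somatic cells with ActA and of 11371 to 15567 and 15267 to 19531 without. COL3A1 was the one of these called between the fractions, lower in cjPGCLCs without ActA (log2 fold change −1.57 ± 0.46 SE, adjusted p = 0.038). As these are bulk samples, fewer cells of a type and less RNA per cell cannot be told apart.

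**Figure D1:**
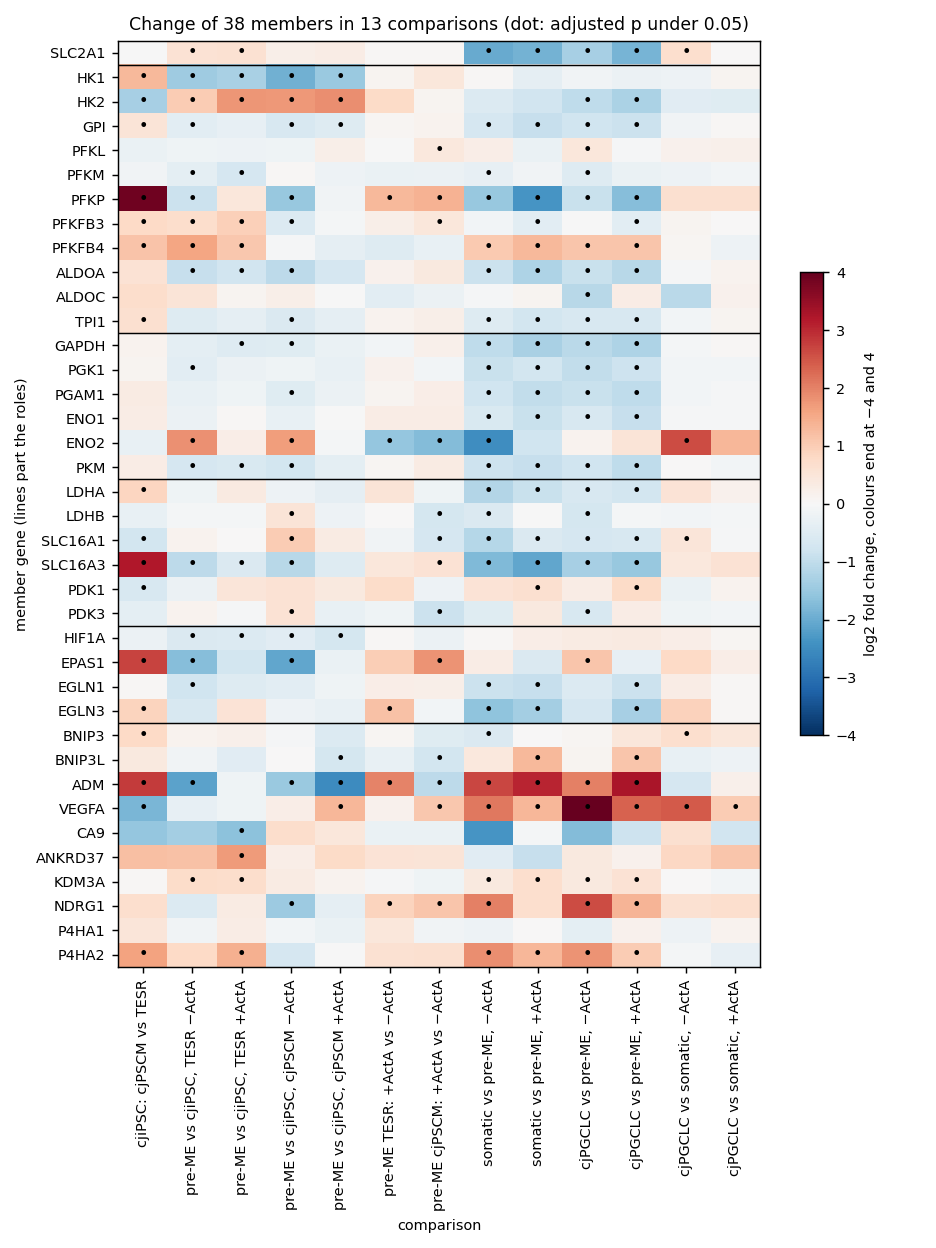
Log2 fold change (colour, red higher, blue lower in the first-named condition) of 38 genes (rows, in the order of their roles) in 13 comparisons (columns), with a dot where the adjusted p was under 0.05. PFKP and SLC16A3 were raised most in cjPSCM, and most glycolysis genes were lower in day 4 cells than in pre-ME while ADM and VEGFA were higher.

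The medium of the cjiPSCs was compared first. In cjPSCM, compared with TESR, isozymes and transporters of several steps differed while the abundant enzymes of the triose phase did not pass the test. PFKP, a phosphofructokinase isozyme, SLC16A3 (MCT4), a lactate exporter, the hypoxia factor EPAS1 and the vasodilator peptide gene ADM were the 4 members that rose most. Of the members called lower, VEGFA and HK2 fell most. In all, 13 of 38 members were higher and 4 were lower, where 18.1% of all genes tested were called higher and 18.1% lower. Without replicate 1 of cjPSCM the split was 7 higher and 7 lower, and without replicate 2 of cjPSCM it was 21 and 4.

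PFKP had 332 and 488 normalised counts in TESR and 7579 and 4439.6 in cjPSCM. The groups were far apart (log2 fold change 3.88 ± 0.24 SE, adjusted p = 7.88e-09). SLC16A3 had 475 and 502 in TESR and 5656 and 3482 in cjPSCM (log2 fold change 3.21 ± 0.21 SE, adjusted p = 1.05e-08). ADM rose from 68.3 and 112 to 784 and 424 (log2 fold change 2.80 ± 0.35 SE, adjusted p = 1.06e-05), and EPAS1 from 214 and 269.5 to 2229 and 883 (log2 fold change 2.69 ± 0.35 SE, adjusted p = 1.55e-05). In each of these 4 genes the lower cjPSCM library was still above both TESR libraries. HK1, the hexokinase of most tissues, was raised from 1633 and 1864 to 5372 and 3350.1 (log2 fold change 1.31 ± 0.18 SE, adjusted p = 2.23e-05), while the inducible hexokinase HK2 went from 305 and 404 to 66.9 and 228 (log2 fold change −1.33 ± 0.36 SE, adjusted p = 0.0079). The cjPSCM replicates of HK2 were far apart, and without replicate 1 of cjPSCM its change did not pass (log2 fold change −0.65, adjusted p = 0.07). VEGFA, the main angiogenic growth factor, had 239 and 451 in TESR and 73.5 and 122 in cjPSCM (log2 fold change −1.84 ± 0.29 SE, adjusted p = 0.000113).

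The other members called higher were P4HA2, a collagen prolyl hydroxylase subunit, the bisphosphatase/kinase genes PFKFB4 and PFKFB3, EGLN3, LDHA, the mitophagy receptor gene BNIP3, TPI1 and GPI, with log2 fold changes from 0.53 to 1.60. SLC16A1 (MCT1), the counterpart of SLC16A3, fell from 4102 and 3772 to 2201 and 2566 (log2 fold change −0.75 ± 0.14 SE, adjusted p = 0.000648). PDK1, an inhibitor of pyruvate dehydrogenase, had overlapping groups, 361 and 229 in TESR and 246 and 136 in cjPSCM (log2 fold change −0.65 ± 0.24 SE, adjusted p = 0.0442), and did not pass without replicate 1 of TESR (log2 fold change −0.23, adjusted p = 0.565) or replicate 2 of cjPSCM (log2 fold change −0.30, adjusted p = 0.318). The transporter SLC2A1 (GLUT1) had 2744 and 2667 and 2541 and 2919 (log2 fold change −0.01 ± 0.13 SE). HIF1A had 4038 and 3163 and 3554 and 2603 (log2 fold change −0.25 ± 0.16 SE, adjusted p = 0.232). None of the 6 triose phase genes passed, and their log2 fold changes ran from −0.29 in ENO2 to 0.32 in PGAM1. The 17 glycolysis genes of both phases had a median of 0.32, beside 0.00 for all genes tested.

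Within families the shift can be read inside each library. PFKP held 9.18% and 12.2% of the reads of PFKL, PFKM and PFKP in TESR and 69.5% and 61.9% in cjPSCM. SLC16A3 held 10.4% and 11.7% of the reads of SLC16A1 and SLC16A3 in TESR and 71.99% and 57.6% in cjPSCM. EPAS1 held 5.04% and 7.85% of the reads of HIF1A and EPAS1 in TESR and 38.5% and 25.3% in cjPSCM. LDHA held 35.8% and 37.5% of the reads of LDHA and LDHB in TESR and 60.5% and 50.2% in cjPSCM. The family share of each of these 4 genes was higher in both cjPSCM libraries than in both TESR libraries. HK2 went the other way, from 15.7% and 17.8% of the reads of HK1 and HK2 in TESR to 1.23% and 6.38% in cjPSCM. As transcripts differ in length, such a share is compared between conditions, not between isozymes.

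**Figure D2:**
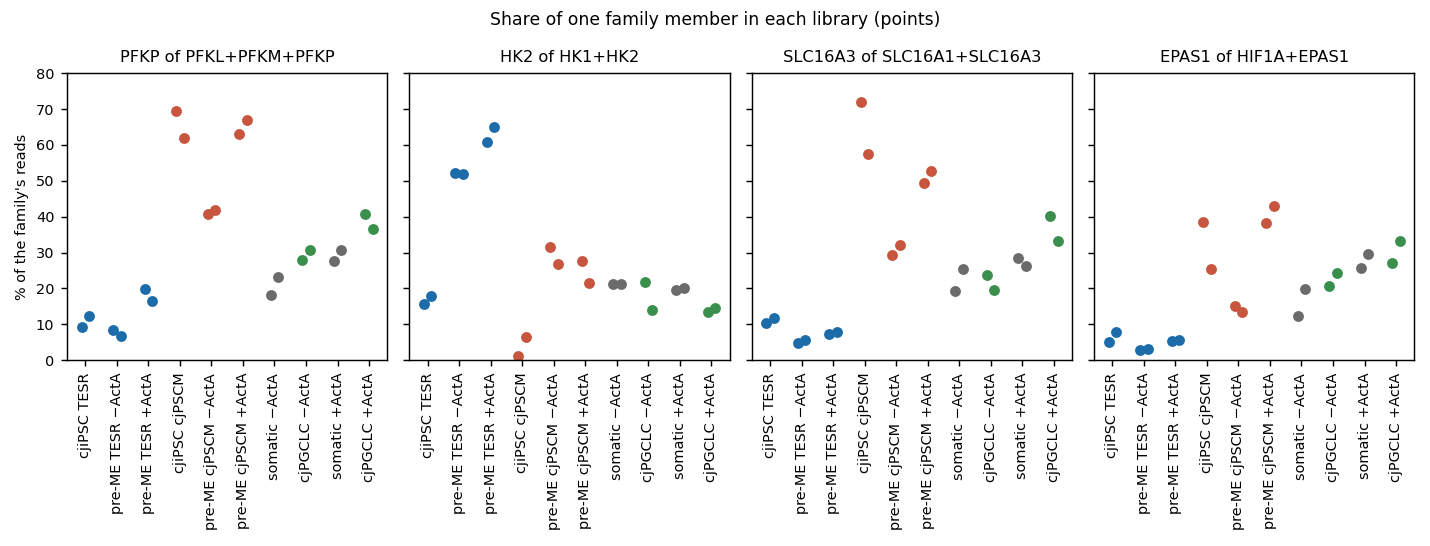
Share of PFKP, HK2, SLC16A3 and EPAS1 in the reads of the members of their gene family (y axis, percent). Points are the 20 libraries, 2 per condition (blue TESR, red cjPSCM, grey somatic cells, green cjPGCLCs). The SLC16A3 and EPAS1 shares were lowest in TESR cultures, and the HK2 share was highest in pre-ME of TESR cultures.

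Some genes of the marker lists were called between the media as well, beside a background of 18.1% of all genes higher and 18.1% lower. Of the pluripotency genes, NANOG and POU5F1 were called higher in cjPSCM (log2 fold changes 1.21 and 0.89), but not SOX2. Of the germ cell list, SOX17 and TFAP2C were (2.03 and 4.05), but not KIT, NANOS3 or PRDM1. PECAM1, placed here among endothelial genes, is listed by the paper as a gene of naïve and formative pluripotency. Of the endothelial genes PECAM1, CDH5 and KDR, 2 were higher in cjPSCM, PECAM1 (log2 fold change 2.61 ± 0.21 SE, adjusted p = 1.11e-07) and CDH5 (log2 fold change 3.55 ± 0.43 SE, adjusted p = 7.12e-06), and the 3 genes summed to 7366 to 8908 normalised counts in TESR and 14057 to 29827 in cjPSCM. Of the 4 somatic genes 1 was higher, GATA6 (log2 fold change 4.001 ± 0.30 SE, adjusted p = 4.77e-08), and the sum was 326 to 417 and 2359.9 to 2922. No gene of the endothelial or somatic list had 0 counts in both libraries of a medium. Of 6 genes of the integrated stress response (ATF4, DDIT3, TRIB3, ASNS, CHAC1, SESN2) 3 were higher, with TRIB3 the most raised (log2 fold change 2.17 ± 0.33 SE, adjusted p = 8.29e-05), and ASNS was lower (log2 fold change −0.84 ± 0.13 SE, adjusted p = 0.000112), and of 9 genes that respond to dissociation (FOS, FOSB, JUN, JUNB, EGR1, ATF3, IER2, DNAJB1, HSPH1) 2 were higher and 1 was lower. These lists summed to 7853 to 10185 and 8787 to 13723 in TESR and 7326 to 7772 and 10814 to 15155 in cjPSCM. The part of these markers in the differences of the members was not tested. When only the 4 libraries of this comparison were fitted, 6 of the 17 calls passed, namely PFKP, SLC16A3, EPAS1, ADM, HK1 and VEGFA.

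Outside the members, 31 other genes of glycolysis and pyruvate use were tested, with 3 higher and 7 lower in cjPSCM. Of 32 other hypoxia genes, 8 were higher and 9 lower. The background was 18.1% of all genes higher and 18.1% lower. STC1, a hypoxia-induced glycoprotein hormone gene, fell from 3139 and 5449.9 in TESR to 141 and 129 in cjPSCM (log2 fold change −5.00 ± 0.30 SE, adjusted p = 5.39e-09). PPP1R3C, which targets protein phosphatase to glycogen, fell from 104 and 65.5 to 6.59 and 1.48 (log2 fold change −4.24 ± 0.46 SE, adjusted p = 2.13e-06), and STC2, a paralogue of STC1, was at 7.71 and 10.4 and 0 and 1.48, the latter under the level that 3 counts stand for. LOX, a collagen cross-linking oxidase, rose from 321 and 398 to 2956 and 1192 (log2 fold change 2.53 ± 0.34 SE, adjusted p = 2.05e-05). HKDC1, a further hexokinase gene, had 9.42 and 7.41 in cjPSCM against 1.1 and 1.49 in TESR, where it was at or below 3 counts.

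**Figure D3:**
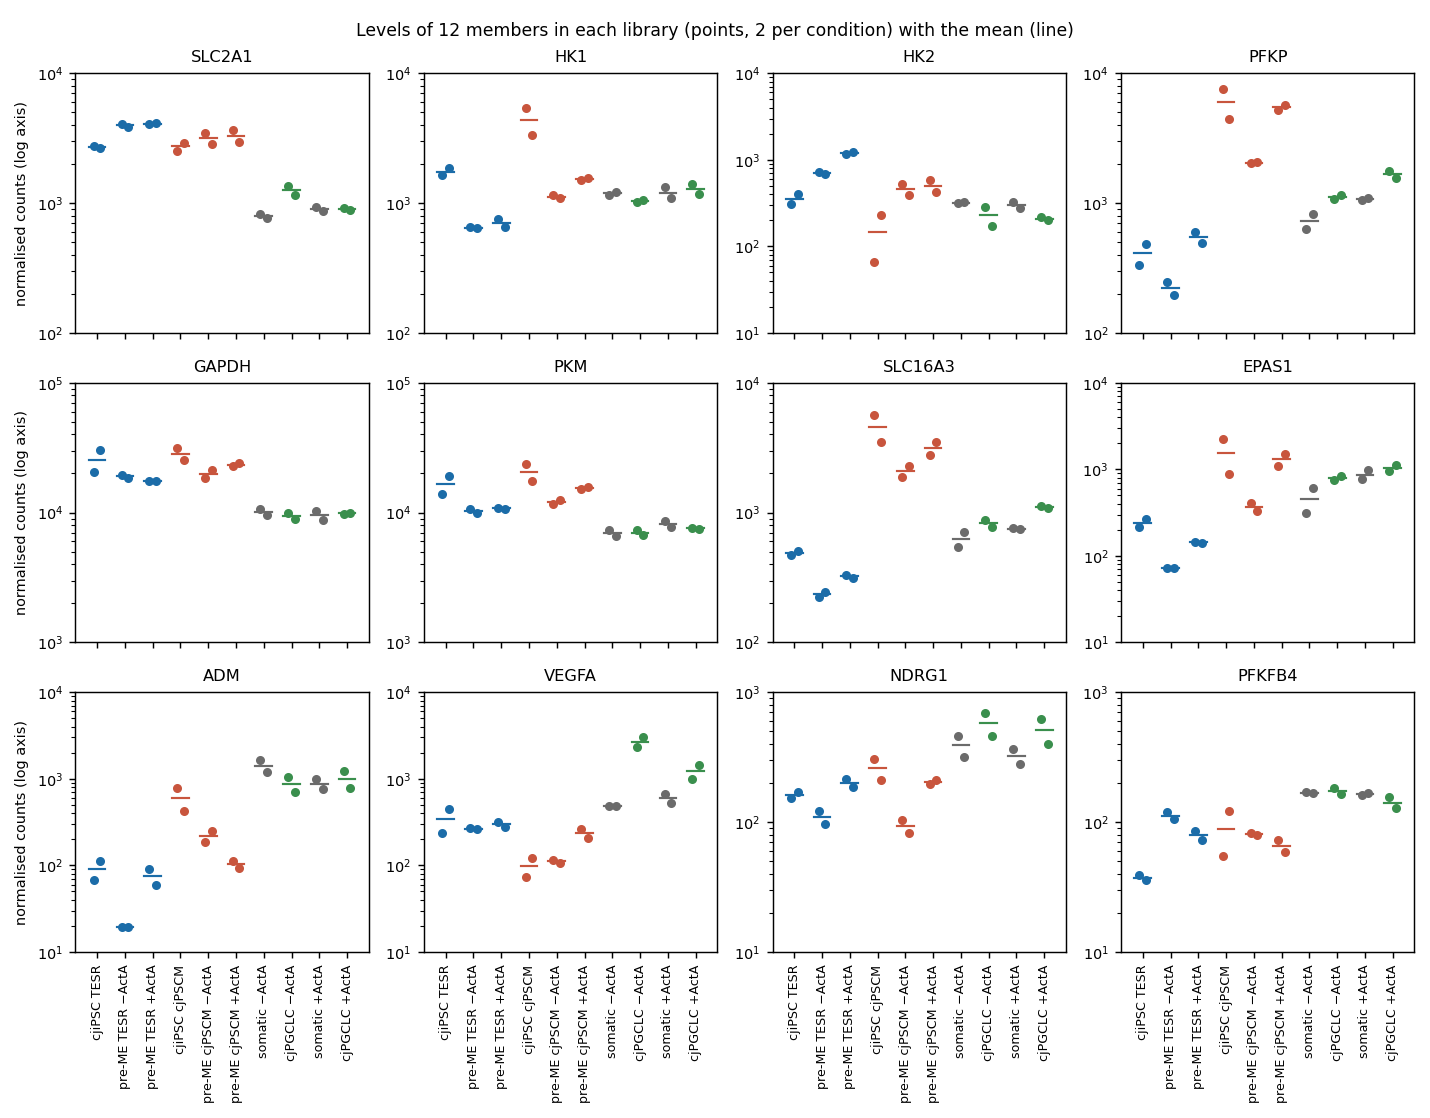
Normalised counts (log axis) of 12 genes in each of 20 libraries (points, 2 per condition) with the mean of the 2 (line), blue for TESR cultures, red for cjPSCM cultures, grey for somatic cells and green for cjPGCLCs. HK1 fell and HK2 rose from cjiPSCs to pre-ME in both media, and in day 4 cells SLC2A1, GAPDH and PKM were lower while ADM and VEGFA were higher than in the pre-ME of cjPSCM cultures.

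Pre-ME was next compared with the cjiPSCs it came from. Basal medium, coating, ROCK inhibitor and replating also changed between them, and these cannot be told apart from the induction itself. Under all 4 protocols HK1 fell, HK2 rose and HIF1A fell. With total-count scaling HIF1A did not pass in either medium without ActA. When only the libraries of a comparison were fitted, HIF1A passed under none of the 4, HK2 under neither protocol in cjPSCM, and HK1 did not pass in cjPSCM with ActA. These 4 comparisons share the cjiPSC libraries of each medium, so they are not independent of each other. HK1 went from 1633 and 1864 in TESR cjiPSCs to 754 and 659.7 with ActA (log2 fold change −1.29 ± 0.18 SE, adjusted p = 4.5e-05) and 659 and 638 without (log2 fold change −1.42 ± 0.18 SE, adjusted p = 1.9e-05). From 5372 and 3350.1 in cjPSCM cjiPSCs it went to 1512 and 1566 with ActA (log2 fold change −1.49 ± 0.18 SE, adjusted p = 2.72e-05) and 1151 and 1087 without (log2 fold change −1.93 ± 0.18 SE, adjusted p = 1.39e-06). Both replicates of each pre-ME were below both replicates of the cjiPSCs.

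HK2 moved in the other direction. It rose in TESR cultures from 305 and 404 to 1166 and 1227 with ActA (log2 fold change 1.78 ± 0.33 SE, adjusted p = 0.000634) and 720.3 and 691 without (log2 fold change 1.02 ± 0.33 SE, adjusted p = 0.0218). In cjPSCM cultures it rose from 66.9 and 228 to 579.9 and 427 with ActA (log2 fold change 1.86 ± 0.36 SE, adjusted p = 0.00182) and 530.0 and 395 without (log2 fold change 1.75 ± 0.35 SE, adjusted p = 0.00124). No pre-ME library overlapped with the cjiPSCs of its medium. The HK2 share of the reads of HK1 and HK2 rose from 15.7% and 17.8% in TESR cjiPSCs to 60.7% and 65.03% with ActA and 52.2% and 51.99% without. In cjPSCM it rose from 1.23% and 6.38% to 27.7% and 21.4% with ActA and 31.5% and 26.7% without. The size of the rise in cjPSCM rested on the spread between the cjiPSC replicates, with log2 fold changes of 1.18 to 2.92 with ActA when 1 library was left out. In TESR without ActA the rise of HK2 did not pass without replicate 1 of the cjiPSCs (log2 fold change 0.84, adjusted p = 0.133) or either pre-ME library (log2 fold change 0.98, adjusted p = 0.0864 without replicate 1, log2 fold change 1.05, adjusted p = 0.0726 without replicate 2).

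HIF1A, the general oxygen-regulated factor, went from 4038 and 3163 in TESR cjiPSCs to 2567 and 2391 with ActA (log2 fold change −0.53 ± 0.15 SE, adjusted p = 0.0142) and 2455 and 2340.2 without (log2 fold change −0.58 ± 0.16 SE, adjusted p = 0.00808). In cjPSCM it went from 3554 and 2603 to 1772 and 1987 (log2 fold change −0.70 ± 0.16 SE, adjusted p = 0.00536) and 2269.6 and 2117 (log2 fold change −0.46 ± 0.16 SE, adjusted p = 0.0288). The decrease was below a log2 fold change of 1 in each. In TESR with ActA, HIF1A did not pass without replicate 2 of the pre-ME. Its other omissions outside cjPSCM with ActA are not given here. In cjPSCM with ActA it did not pass without replicate 1 of the cjiPSCs (log2 fold change −0.44, adjusted p = 0.0927) or of the pre-ME (log2 fold change −0.63, adjusted p = 0.083). EPAS1 fell without ActA, from 214 and 269.5 to 72.97 and 72.1 in TESR (log2 fold change −1.71 ± 0.37 SE, adjusted p = 0.00171) and from 2229 and 883 to 403 and 327 in cjPSCM (log2 fold change −2.06 ± 0.34 SE, adjusted p = 0.000218). With ActA its level was 146 and 141 in TESR (log2 fold change −0.73 ± 0.35 SE, adjusted p = 0.117) and 1103 and 1497 in cjPSCM (log2 fold change −0.26 ± 0.32 SE, adjusted p = 0.612), and neither difference passed.

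In TESR cultures, 7 members were higher and 8 lower with ActA (background 17.3% and 17.1% of all genes), and 6 were higher and 12 lower without ActA (background 17.4% and 19.2%). Glucose uptake gene SLC2A1 rose from 2744 and 2667 to 4032 and 4152 with ActA (log2 fold change 0.61 ± 0.13 SE, adjusted p = 0.00223) and 4087 and 3874 without (log2 fold change 0.57 ± 0.13 SE, adjusted p = 0.00325). PFKFB4, which sets the level of the phosphofructokinase activator fructose-2,6-bisphosphate, rose from 39.1 and 35.7 to 85.4 and 72.7 (log2 fold change 1.07 ± 0.28 SE, adjusted p = 0.00716) and 119 and 105 (log2 fold change 1.57 ± 0.28 SE, adjusted p = 0.000369). The groups did not overlap for either gene. Its paralogue PFKFB3 and the histone demethylase gene KDM3A, a HIF target, were also called higher in both, with log2 fold changes of 0.94 and 0.70 for PFKFB3 and of 0.69 and 0.75 for KDM3A. ALDOA (aldolase), PFKM, PKM (pyruvate kinase) and SLC16A3 were called lower in both. With ActA, PKM and SLC16A3 did not pass without replicate 2 of the pre-ME. P4HA2 rose from 15.4 and 8.93 to 37.8 and 32.4 with ActA (log2 fold change 1.41 ± 0.41 SE, adjusted p = 0.0145).

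Some calls in TESR cultures with ActA rested on low counts or on 1 library. CA9, a carbonic anhydrase that is a classical HIF target, had 18.2 and 17.9 normalised counts in cjiPSCs and 6.57 and 4.78 in pre-ME (log2 fold change −1.65 ± 0.57 SE, adjusted p = 0.0342). ANKRD37, a further HIF target, had 4.41 and 5.96 and 13.1 and 19.1 (log2 fold change 1.70 ± 0.61 SE, adjusted p = 0.0397). Neither passed when any 1 of the 4 libraries was left out, and for ANKRD37 the weakest of these gave log2 fold change 1.45, adjusted p = 0.23 without replicate 1 of the cjiPSCs, for CA9 log2 fold change −1.43, adjusted p = 0.187 without replicate 2 of the pre-ME. ALDOA fell from 7038 and 10490.3 to 5010.2 and 5249.7 (log2 fold change −0.76 ± 0.23 SE, adjusted p = 0.0194) and did not pass without replicate 2 of the cjiPSCs (log2 fold change −0.47, adjusted p = 0.206) or either pre-ME library. P4HA2 did not pass without replicate 2 of the cjiPSCs (log2 fold change 1.17, adjusted p = 0.0827) or replicate 1 of the pre-ME (log2 fold change 1.30, adjusted p = 0.0746), and PFKFB4 did not without the latter (log2 fold change 0.95, adjusted p = 0.0557).

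Without ActA, ENO2 (the neuron-type enolase) rose and ADM fell in both media. In TESR, ENO2 went from 72.2 and 74.5 to 274 and 244 (log2 fold change 1.83 ± 0.37 SE, adjusted p = 0.00112), and ADM from 68.3 and 112 to 19.2 and 19.2 (log2 fold change −2.14 ± 0.42 SE, adjusted p = 0.000827). In cjPSCM, ENO2 went from 22.6 and 107 to 185 and 197 (log2 fold change 1.68 ± 0.39 SE, adjusted p = 0.00318), where the cjiPSC replicates were far apart, and ADM from 784 and 424 to 185 and 248 (log2 fold change −1.47 ± 0.32 SE, adjusted p = 0.00204). In all these the pre-ME libraries lay outside the range of the cjiPSC libraries. For ENO2 in cjPSCM, fits without 1 of the libraries gave log2 fold changes from 0.89 to 3.08. When only the libraries of a comparison were fitted, ENO2 and ADM passed in TESR but neither passed in cjPSCM. The ubiquitous enolase ENO1 was not called in either medium, with log2 fold changes of −0.22 and −0.30.

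In cjPSCM cultures, 2 members were higher and 5 lower with ActA (background 7.42% and 10.3%), and 5 were higher and 14 lower without ActA (background 17.9% and 20.1%). With ActA the largest decrease was of ADM, from 784 and 424 to 113 and 94.1 (log2 fold change −2.52 ± 0.34 SE, adjusted p = 0.000105), and VEGFA rose from 73.5 and 122 to 263 and 208 (log2 fold change 1.33 ± 0.29 SE, adjusted p = 0.00506). GPI and BNIP3L were the other calls, both lower by less than 1 on the log2 scale. The rise of VEGFA did not pass without replicate 1 of the cjiPSCs (log2 fold change 0.999, adjusted p = 0.099) or of the pre-ME (log2 fold change 1.13, adjusted p = 0.0742), and the fall of BNIP3L did not without replicate 1 of the cjiPSCs (log2 fold change −0.38, adjusted p = 0.297) or either pre-ME library. With total-count scaling, the split without ActA was 9 higher and 9 lower, where GAPDH, HIF1A, PFKFB3, PGAM1 and TPI1 lost their calls and the median of all genes moved to 0.28. With TMM, the scaling used throughout, it was 6 and 8 when replicate 1 of the cjiPSCs was left out and 4 and 21 when replicate 2 was. The number of calls with ActA was 21 without replicate 2 of the cjiPSCs and 3 without replicate 1 of the pre-ME. Without ActA, PFKP fell from 7579 and 4439.6 to 2031 and 2068 (log2 fold change −1.52 ± 0.22 SE, adjusted p = 7.76e-05) and NDRG1, a stress-induced differentiation gene, from 308 and 210.5 to 103 and 82.2 (log2 fold change −1.45 ± 0.27 SE, adjusted p = 0.000736). SLC16A1 rose from 2201 and 2566 to 4562 and 4808 (log2 fold change 1.01 ± 0.14 SE, adjusted p = 6.93e-05), PDK3 and LDHB rose by 0.59 and 0.50, and GPI, PFKFB3, ALDOA, TPI1, GAPDH, PGAM1, PKM and SLC16A3 fell, with log2 fold changes from −0.49 in GAPDH to −1.11 in SLC16A3. PDK3 did not pass without replicate 2 of the pre-ME (log2 fold change 0.56, adjusted p = 0.0779).

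A difference between the media in the response to induction was tested as an interaction. The TESR pre-ME libraries have a run of sample numbers apart from all other libraries, the TESR cjiPSCs included. Whether they were prepared apart is not given. Such a difference could not be told apart from TESR induction or from this interaction. With ActA, 1 member was higher and 3 were lower in cjPSCM than in TESR (background 3.0% and 3.2%), and without ActA 1 was higher and 2 were lower (background 2.95% and 3.59%). PFKFB3 and PFKFB4 were called in both, ADM and VEGFA with ActA, and SLC16A1 without. PFKFB3 had 702 and 788 in TESR cjiPSCs and 1339 and 1499 or 1147 and 1247 in pre-ME with or without ActA, whereas in cjPSCM it had 1315 and 1307 before and 1279 and 1161 or 969.7 and 783 after. It was called higher in TESR under both protocols and called lower in cjPSCM without ActA (interaction with ActA −1.03, adjusted p = 0.00265, and without ActA −1.24, adjusted p = 0.000741). When only the 8 libraries of an interaction were fitted, none of these calls passed.

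Other pathway genes gave 4 higher and 10 lower of 31 in glycolysis and pyruvate use and 5 higher and 6 lower of 32 in hypoxia for TESR with ActA. The counts were 3 higher and 10 lower and 3 higher and 10 lower for TESR without ActA. For cjPSCM they were 0 higher and 3 lower and 1 higher and 6 lower with ActA. Without ActA they were 7 higher and 7 lower and 7 higher and 9 lower in cjPSCM. The background was 17.3% higher and 17.1% lower for TESR with ActA and 17.4% and 19.2% without. For cjPSCM it was 7.42% and 10.3% with ActA and 17.9% and 20.1% without. In TESR, STC1 fell from 3139 and 5449.9 to 418 and 274 with ActA (log2 fold change −3.61 ± 0.27 SE, adjusted p = 1.01e-07) and 390.1 and 487 without (log2 fold change −3.27 ± 0.27 SE, adjusted p = 2.82e-07), and PPP1R3C fell as well (log2 fold changes −3.34 and −2.75). LOX rose with ActA, from 321 and 398 to 3239 and 5056 (log2 fold change 3.55 ± 0.35 SE, adjusted p = 1.89e-06). In cjPSCM without ActA, FBP1, the gluconeogenic fructose bisphosphatase, rose from 9.42 and 8.89 to 33.6 and 59.4 (log2 fold change 2.34 ± 0.52 SE, adjusted p = 0.00255), and BHLHE40, a HIF target and clock repressor, fell from 568 and 445 to 77.8 and 43.6 (log2 fold change −2.99 ± 0.31 SE, adjusted p = 4.52e-06). HIF3A rose to 34.2 and 36.7 from the discordant replicates 0.942 and 17.8 (log2 fold change 2.17 ± 0.62 SE, adjusted p = 0.011), and HKDC1 fell to 0.59 and 3.96, near the floor.

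Stress genes moved with induction. Of the 6 genes of the integrated stress response, 5 and 4 were called higher in TESR with and without ActA (background 17.3% and 17.4%). In cjPSCM 4 and 3 were called higher with and without ActA (background 7.42% and 17.9%). TRIB3 was called lower in cjPSCM without ActA (log2 fold change −1.18). Their summed level was 7853 to 10185 in TESR and 7326 to 7772 in cjPSCM cjiPSCs, and 10645 to 12614 in pre-ME. Of the 9 genes that respond to dissociation, 3 or 4 were higher under each protocol, and 0 to 2 were lower. The part of this response in the changes of HK2, VEGFA and the other members was not tested.

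ActA was then compared within pre-ME. PFKP and NDRG1 were higher and ENO2 lower with ActA in the pre-ME of both media. ADM was called in both media with opposite directions. In TESR, 4 members were higher and 1 lower (background 5.63% and 3.2%), and in cjPSCM 7 were higher and 6 lower (background 11.4% and 9.54%). Total-count scaling gave 3 higher and 2 lower in TESR, where NDRG1 did not pass, and 4 higher and 8 lower in cjPSCM, where SLC16A3, PFKFB3 and PFKL did not. PFKP had 246 and 197 without and 600.3 and 489.9 with ActA in TESR (log2 fold change 1.30 ± 0.23 SE, adjusted p = 0.00118) and 2031 and 2068 and 5219 and 5712 in cjPSCM (log2 fold change 1.40 ± 0.22 SE, adjusted p = 0.000445). ENO2 had 274 and 244 and 94.1 and 81.7 in TESR (log2 fold change −1.56 ± 0.35 SE, adjusted p = 0.00877) and 185 and 197 and 55.1 and 60.4 in cjPSCM (log2 fold change −1.75 ± 0.39 SE, adjusted p = 0.00555). No library overlapped between the protocols for these 2 genes. NDRG1 had 121 and 96.4 and 213 and 187 in TESR (log2 fold change 0.88 ± 0.26 SE, adjusted p = 0.0426) and 103 and 82.2 and 197 and 209 in cjPSCM (log2 fold change 1.10 ± 0.28 SE, adjusted p = 0.0115).

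ADM rose with ActA in TESR, from 19.2 and 19.2 to 91.9 and 59.4 (log2 fold change 1.97 ± 0.40 SE, adjusted p = 0.00409), and fell in cjPSCM, from 185 and 248 to 113 and 94.1 (log2 fold change −1.05 ± 0.35 SE, adjusted p = 0.0403). The interaction of ActA and medium, added after the values had been seen, was −3.03 (adjusted p = 0.0173) for ADM, the only member called (background 0.158% higher and 0.241% lower). Without ActA, ADM was far higher in both cjPSCM libraries than in both TESR libraries, and with ActA the libraries of the media were close. The fall in cjPSCM did not pass without replicate 1 or 2 of the pre-ME with ActA (log2 fold change −1.22, adjusted p = 0.152 and log2 fold change −0.93, adjusted p = 0.171) or replicate 2 of that without (log2 fold change −0.85, adjusted p = 0.207). The rise in TESR did not pass without replicate 2 of the pre-ME without ActA (log2 fold change 1.97, adjusted p = 0.0522) or replicate 1 of that with ActA (log2 fold change 1.63, adjusted p = 0.0624).

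EPAS1 was higher with ActA in cjPSCM, 1103 and 1497 against 403 and 327 (log2 fold change 1.81 ± 0.33 SE, adjusted p = 0.00169), and had 146 and 141 against 72.97 and 72.1 in TESR (log2 fold change 0.98 ± 0.36 SE, adjusted p = 0.115), where it was not called. VEGFA followed the same order in cjPSCM, 263 and 208 against 117 and 106 (log2 fold change 1.06 ± 0.28 SE, adjusted p = 0.0141), and SLC16A3, PFKFB3 and PFKL were the other members called higher there, with log2 fold changes of 0.58, 0.46 and 0.41. SLC16A3 held 49.4% and 52.8% of the reads of SLC16A1 and SLC16A3 with ActA and 29.2% and 32.1% without, as SLC16A1 fell (log2 fold change −0.67 ± 0.14 SE, adjusted p = 0.00461). PDK3, from 213 and 224 to 127 and 114 (log2 fold change −0.87 ± 0.18 SE, adjusted p = 0.00445), BNIP3L (log2 fold change −0.72 ± 0.20 SE, adjusted p = 0.0173) and LDHB (log2 fold change −0.70 ± 0.15 SE, adjusted p = 0.00544) were lower. In TESR, EGLN3, a HIF hydroxylase that is itself a HIF target, had 356 and 302 with and 179 and 109.9 without ActA (log2 fold change 1.19 ± 0.26 SE, adjusted p = 0.00748). SLC2A1 had log2 fold changes of 0.04 ± 0.13 SE in TESR and 0.05 ± 0.13 SE in cjPSCM, and GAPDH of −0.12 ± 0.17 and 0.22 ± 0.17, none of them called.

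Several of these calls rested on single libraries. The number of members called in TESR was 1 to 3 when any 1 library was left out, and PFKP was called in all 4 of these fits. In cjPSCM it was 3 without replicate 1 of the pre-ME with ActA and 5 without replicate 2 of the pre-ME without ActA. VEGFA did not pass without replicate 1 with ActA (log2 fold change 0.87, adjusted p = 0.162) or without either replicate that had no ActA, BNIP3L did not without replicate 1 with ActA (log2 fold change −0.62, adjusted p = 0.176) or replicate 2 that had no ActA (log2 fold change −0.59, adjusted p = 0.139), and ENO2 in cjPSCM did not without replicate 1 with ActA (log2 fold change −1.68, adjusted p = 0.0844). NDRG1 in cjPSCM did not pass without either replicate with ActA or replicate 2 that had no ActA (log2 fold change 0.94, adjusted p = 0.109). In TESR, NDRG1 did not pass in any of the 4 fits, with replicate 2 that had no ActA left out giving log2 fold change 0.72, adjusted p = 0.365, EGLN3 did not without that library (log2 fold change 0.87, adjusted p = 0.166) or replicate 1 with ActA (log2 fold change 1.07, adjusted p = 0.0803), and ENO2 did not in 3 of the fits (log2 fold change −1.46, adjusted p = 0.101 without replicate 2 with ActA).

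Of the other pathway genes, 1 higher and 1 lower of 31 and 3 higher and 2 lower of 32 were called in TESR. In cjPSCM 1 higher and 7 lower and 4 higher and 5 lower were called. The background was 5.63% higher and 3.2% lower in TESR and 11.4% and 9.54% in cjPSCM. BHLHE40 was higher with ActA in both media, from 139 and 93.1 to 906 and 674 in TESR (log2 fold change 2.77 ± 0.29 SE, adjusted p = 9.68e-06) and from 77.8 and 43.6 to 633 and 458 in cjPSCM (log2 fold change 3.12 ± 0.31 SE, adjusted p = 6.74e-06). LOX rose in TESR from 133 and 226 to 3239 and 5056 (log2 fold change 4.52 ± 0.36 SE, adjusted p = 8.17e-07). The glucose transporter SLC2A12 fell in cjPSCM from 25.9 and 22.8 to 8.34 and 1.4 (log2 fold change −2.13 ± 0.65 SE, adjusted p = 0.0282). Of the 9 dissociation genes, 3 were higher with ActA in TESR and 4 in cjPSCM, and KDR was higher in both (1.76 ± 0.19 and 2.50 ± 0.20 on the log2 scale), and the part of either in the changes above was not tested.

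The day 4 cells were compared with the pre-ME they were made from. In both sorted fractions and under both protocols, most glycolytic enzymes and the glucose transporter SLC2A1 were lower, while ADM, VEGFA, P4HA2, KDM3A and PFKFB4 were higher than in pre-ME. Each sorted fraction shares its pre-ME libraries with the other, so these are not independent comparisons. They also differ in more than the cell type, since time, medium, EB culture and the sort all changed between pre-ME and day 4, and these cannot be told apart. With ActA, 8 members were higher and 17 lower in cjPGCLCs (background 25.3% and 23.0%) and 7 were higher and 16 lower in somatic cells (background 23.8% and 24.2%). Without ActA, 8 were higher and 18 lower in cjPGCLCs (background 21.5% and 18.5%) and 6 were higher and 19 lower in somatic cells (background 20.6% and 21.7%).

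SLC2A1 had 3648 and 2979 normalised counts in pre-ME with ActA, 922 and 886 in cjPGCLCs (log2 fold change −1.87 ± 0.14 SE, adjusted p = 4.4e-08) and 929.6 and 875 in somatic cells (log2 fold change −1.88 ± 0.14 SE, adjusted p = 3.81e-08). Without ActA it had 3481 and 2833 in pre-ME, 1366 and 1149 in cjPGCLCs (log2 fold change −1.34 ± 0.14 SE, adjusted p = 1.25e-06) and 821 and 767 in somatic cells (log2 fold change −2.02 ± 0.14 SE, adjusted p = 1.68e-08). Every day 4 library lay well below every pre-ME library of its protocol. GAPDH, the first enzyme of the triose phase, went from 22878 and 23948 to 9789 and 9897 in cjPGCLCs (log2 fold change −1.25 ± 0.17 SE, adjusted p = 1.9e-05) and 10201 and 8845 in somatic cells (log2 fold change −1.30 ± 0.17 SE, adjusted p = 1.22e-05) with ActA. Without ActA it went from 18459.9 and 21271 to 9999.6 and 8993 (log2 fold change −1.08 ± 0.17 SE, adjusted p = 9.72e-05) and 10636 and 9618 (log2 fold change −1.003 ± 0.17 SE, adjusted p = 0.000171). Its level in the 8 day 4 libraries lay within a narrow range.

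PFKP and SLC16A3, which cjPSCM had raised, were among the largest decreases. With ActA, PFKP went from 5219 and 5712 to 1769.8 and 1554 in cjPGCLCs (log2 fold change −1.71 ± 0.22 SE, adjusted p = 1.23e-05) and 1052 and 1087 in somatic cells (log2 fold change −2.36 ± 0.23 SE, adjusted p = 6.21e-07). Without ActA it went from 2031 and 2068 to 1078 and 1146 (log2 fold change −0.90 ± 0.22 SE, adjusted p = 0.00383) and 632 and 820.0 (log2 fold change −1.52 ± 0.23 SE, adjusted p = 5.53e-05). SLC16A3 went from 2765 and 3518 to 1126 and 1085 (log2 fold change −1.502 ± 0.20 SE, adjusted p = 1.3e-05) and 759.6 and 744 (log2 fold change −2.07 ± 0.20 SE, adjusted p = 6.43e-07) with ActA, and from 1881 and 2269 to 873 and 779 (log2 fold change −1.34 ± 0.20 SE, adjusted p = 5.08e-05) and 539.6 and 704 (log2 fold change −1.76 ± 0.20 SE, adjusted p = 3.95e-06) without. HK2 was lower in cjPGCLCs, 218 and 202 with ActA (log2 fold change −1.26 ± 0.34 SE, adjusted p = 0.00596) and 283 and 172 without (log2 fold change −1.01 ± 0.34 SE, adjusted p = 0.024), and was 322 and 276 (log2 fold change −0.77 ± 0.34 SE, adjusted p = 0.0728) and 314 and 328 (log2 fold change −0.56 ± 0.34 SE, adjusted p = 0.2) in somatic cells, which was not called. HK1 was not called in any of the 4, with log2 fold changes from −0.36 to 0.06. EGLN3 fell in somatic cells under both protocols (log2 fold change −1.36 ± 0.29 SE, adjusted p = 0.000947 with ActA and log2 fold change −1.59 ± 0.29 SE, adjusted p = 0.000365 without) and in cjPGCLCs with ActA (log2 fold change −1.32 ± 0.28 SE, adjusted p = 0.000959).

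Of the 17 glycolysis genes, 11 were lower and 1 higher in cjPGCLCs with ActA, with a median log2 fold change of −0.84 beside 0.04 for all genes. Without ActA 12 were lower and 2 higher (−0.80 beside 0.01). In somatic cells 10 were lower and 1 higher with ActA (−0.77 beside 0.01), and 11 were lower and 1 higher without (−0.60 beside 0.00). GPI, PFKP, ALDOA, TPI1, GAPDH, PGK1, PGAM1, ENO1 and PKM were lower in all 4 comparisons, and PFKFB4 was the glycolysis gene higher in all 4. With DESeq2's size factors TPI1 did not pass in somatic cells without ActA. ENO2 fell in somatic cells without ActA, from 185 and 197 to 41.5 and 29.4 (log2 fold change −2.48 ± 0.44 SE, adjusted p = 0.000286), and had 219 and 203 in cjPGCLCs (log2 fold change 0.14 ± 0.35 SE, adjusted p = 0.783). PFKFB4 rose from 72.6 and 58.98 to 155 and 128 in cjPGCLCs (log2 fold change 1.10 ± 0.27 SE, adjusted p = 0.00303) and 163 and 168 in somatic cells (log2 fold change 1.31 ± 0.27 SE, adjusted p = 0.000872) with ActA. ALDOC, from 18.3 and 23.8 to 10.6 and 7.88 without ActA (log2 fold change −1.12 ± 0.40 SE, adjusted p = 0.0347), rested on few counts and did not pass without replicate 2 of the pre-ME (log2 fold change −0.96, adjusted p = 0.146) or either cjPGCLC library. LDHA and SLC16A1 were called lower in all 4 as well, by −0.65 to −1.19 and by −0.59 to −1.14 on the log2 scale.

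The reads of the 17 glycolysis genes together made up 0.753% and 0.797% of all reads on genes in cjPSCM pre-ME with ActA and 0.672% and 0.733% without. In day 4 cells they made up 0.422% and 0.423% in cjPGCLCs and 0.431% and 0.395% in somatic cells with ActA, and 0.411% and 0.383% and 0.418% and 0.385% without. No day 4 library reached any earlier library. In cjiPSCs the share was 0.651% and 0.756% in TESR and 0.989% and 0.803% in cjPSCM.

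**Figure D4:**
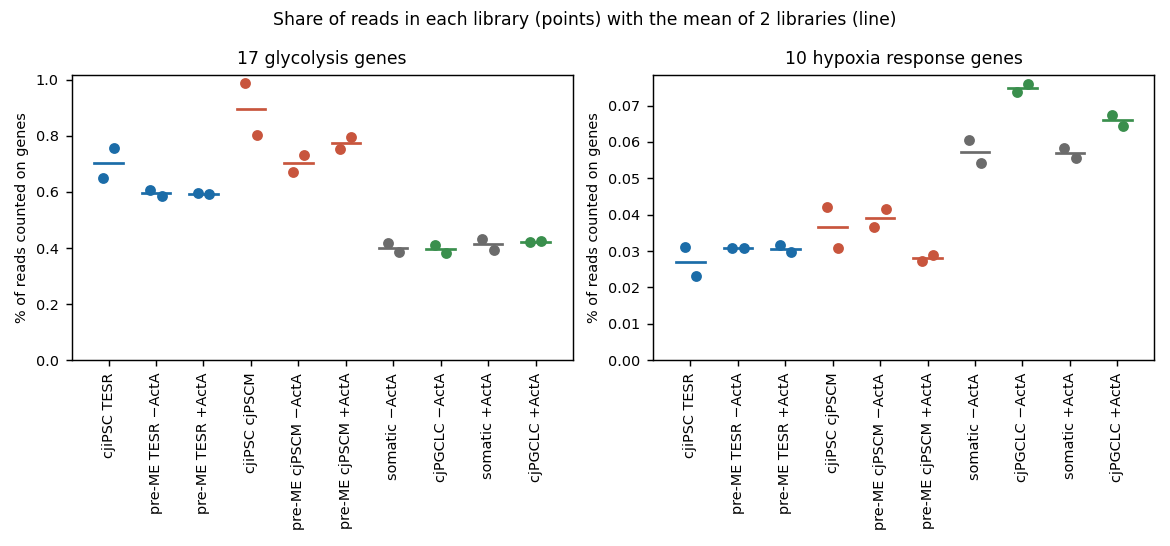
Share of all reads on genes (y axes, percent, starting at 0) held by 17 glycolysis genes (left) and by 10 hypoxia response genes (right) in each of 20 libraries (points, 2 per condition) with the mean (line). The 8 day 4 libraries had the lowest glycolysis shares and the highest hypoxia response shares. Both shares are sums of counts, in which abundant genes weigh most.

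The hypoxia response genes went the other way. Of the 10 members, 6 were higher and 0 lower in cjPGCLCs with ActA (median log2 fold change 0.80) and 5 were higher and 0 lower without (0.39). In somatic cells 5 were higher and 0 lower with ActA (0.67), and 5 were higher and 1 lower, BNIP3, without (0.40). DESeq2 called 0 lower in these first 3 as well, and at an unadjusted p under 0.05 0, 1 and 0 were lower. With only the libraries of a comparison fitted, 1 of the 9 then tested was lower in cjPGCLCs without ActA. Of all genes, 25.3% and 21.5% were called higher and 23.0% and 18.5% lower in cjPGCLCs with and without ActA. In somatic cells 23.8% and 20.6% were higher and 24.2% and 21.7% lower. ADM rose most with ActA, from 113 and 94.1 in pre-ME to 1216 and 786 in cjPGCLCs (log2 fold change 3.26 ± 0.35 SE, adjusted p = 1.74e-06) and 999 and 754 in somatic cells (log2 fold change 3.05 ± 0.35 SE, adjusted p = 3.36e-06). Without ActA it rose from 185 and 248 to 1044 and 697 (log2 fold change 2.01 ± 0.32 SE, adjusted p = 0.000114) and 1628 and 1182 (log2 fold change 2.68 ± 0.33 SE, adjusted p = 7.61e-06). VEGFA, which rose more than any other member in cjPGCLCs without ActA, went from 117 and 106 to 2331 and 3026 in cjPGCLCs (log2 fold change 4.57 ± 0.29 SE, adjusted p = 7.28e-09) and 491 and 489 in somatic cells (log2 fold change 2.10 ± 0.28 SE, adjusted p = 1.86e-05). With ActA it rose from 263 and 208 to 982 and 1449 (log2 fold change 2.36 ± 0.27 SE, adjusted p = 3.13e-06) and 666 and 531 (log2 fold change 1.33 ± 0.27 SE, adjusted p = 0.000664). For both genes all day 4 libraries lay above their pre-ME.

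NDRG1 rose in cjPGCLCs from 197 and 209 to 622 and 401 with ActA (log2 fold change 1.35 ± 0.26 SE, adjusted p = 0.000504) and from 103 and 82.2 to 692 and 462 without (log2 fold change 2.62 ± 0.27 SE, adjusted p = 1.72e-06). In somatic cells it rose to 464 and 317 without ActA (log2 fold change 2.02 ± 0.28 SE, adjusted p = 2.53e-05) and was 367 and 280.3 with ActA (log2 fold change 0.66 ± 0.27 SE, adjusted p = 0.0505). P4HA2 rose from 45.1 and 33.7 to 81.1 and 79.6 (log2 fold change 1.01 ± 0.37 SE, adjusted p = 0.0325) and 127 and 76.03 (log2 fold change 1.33 ± 0.37 SE, adjusted p = 0.00755) with ActA, and from 24.8 and 25.8 to 97.97 and 77.2 (log2 fold change 1.79 ± 0.37 SE, adjusted p = 0.00115) and 99.2 and 89.7 (log2 fold change 1.87 ± 0.39 SE, adjusted p = 0.001) without. In somatic cells with ActA it did not pass without replicate 1 of the somatic cells (log2 fold change 0.91, adjusted p = 0.124) or replicate 2 of the pre-ME (log2 fold change 1.13, adjusted p = 0.0683). BNIP3L rose with ActA, from 830.2 and 968 to 1909 and 1951 in cjPGCLCs (log2 fold change 1.11 ± 0.20 SE, adjusted p = 0.000243) and 2160.2 and 2269 in somatic cells (log2 fold change 1.30 ± 0.20 SE, adjusted p = 6.16e-05). KDM3A rose by 0.40 to 0.69 on the log2 scale in the 4 comparisons, but with total-count scaling it did not pass in either fraction without ActA. CA9 and ANKRD37 were not called, at 0 to 13.9 and 5.31 to 28.1 normalised counts in these 12 libraries, and neither was P4HA1. The 10 genes together held 0.0272% and 0.029% of the reads in pre-ME with ActA and 0.0366% and 0.0416% without, and 0.0673% and 0.0645% and 0.0738% and 0.0759% in cjPGCLCs and 0.0585% and 0.0555% and 0.0604% and 0.0542% in somatic cells with and without ActA.

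The factors and sensors moved in different directions. EGLN3, a sensor that is itself a HIF target, was called lower in all but the cjPGCLCs without ActA, as given above. It is not counted among the hypoxia response genes. EPAS1 rose in cjPGCLCs without ActA, from 403 and 327 to 756 and 845 (log2 fold change 1.11 ± 0.33 SE, adjusted p = 0.0134), and was not called in the other 3 comparisons. HIF1A was not called in any, with log2 fold changes from 0.06 to 0.35. EGLN1, the main HIF hydroxylase, was lower in all but the cjPGCLCs without ActA, for example from 466 and 497 to 244 and 299 in somatic cells (log2 fold change −0.85 ± 0.25 SE, adjusted p = 0.0111). PDK1 rose with ActA, from 239 and 263 to 451 and 398 in cjPGCLCs (log2 fold change 0.77 ± 0.24 SE, adjusted p = 0.0132) and 421 and 359 in somatic cells (log2 fold change 0.63 ± 0.24 SE, adjusted p = 0.0388).

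Some marker genes were called between day 4 cells and pre-ME too. The background was 20.6% to 25.3% of all genes higher and 18.5% to 24.2% lower. The integrated stress genes were lower in 5 of 6 in both fractions with ActA, and in 0 of 6 in cjPGCLCs and 1 of 6 in somatic cells without it. Of the 9 dissociation genes, 2 to 5 were lower and 1 or 2 higher. All 4 somatic genes rose in all 4 comparisons, from 546 to 604 in pre-ME with ActA to 10888 to 16494 in cjPGCLCs, while the endothelial sum was 6643 to 7033 and 3979.7 to 4125. The part of these in the changes of glycolysis and hypoxia genes was not tested.

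PDK4, which inhibits pyruvate dehydrogenase as PDK1 and PDK3 do, was the other pathway gene that rose most. With ActA it went from 5.01 and 5.62 in pre-ME to 539 and 344 in cjPGCLCs (log2 fold change 6.38 ± 0.48 SE, adjusted p = 4.89e-08) and 595 and 468 in somatic cells (log2 fold change 6.62 ± 0.48 SE, adjusted p = 2.89e-08). Without ActA it went from 4.72 and 0.991 to 143 and 86.7 (log2 fold change 5.11 ± 0.50 SE, adjusted p = 9.25e-07) and 374 and 367 (log2 fold change 6.75 ± 0.49 SE, adjusted p = 2.46e-08). Of the 31 other glycolysis and pyruvate genes, 9 higher and 8 lower were called in cjPGCLCs with ActA, 8 higher and 7 lower without, 8 higher and 12 lower in somatic cells with ActA and 8 higher and 13 lower without. Of the 32 other hypoxia genes, 15 higher and 8 lower were called in cjPGCLCs with ActA and 11 higher and 5 lower without. In somatic cells 13 higher and 6 lower were called with ActA and 9 higher and 7 lower without. The background was 25.3% higher and 23.0% lower in cjPGCLCs with ActA and 21.5% and 18.5% without. In somatic cells it was 23.8% and 24.2% with ActA and 20.6% and 21.7% without. HKDC1 rose in cjPGCLCs to 28.7 and 14.2 with and 29.6 and 31.5 without ActA. PPP1R3C rose with ActA to 52.4 and 41.2 in cjPGCLCs (log2 fold change 3.66 ± 0.49 SE, adjusted p = 1.61e-05), and in somatic cells to 31.9 and 32.8 with (log2 fold change 3.11 ± 0.52 SE, adjusted p = 0.000143) and 48.4 and 43.3 without ActA (log2 fold change 2.82 ± 0.44 SE, adjusted p = 8.61e-05). The lipase inhibitor gene ANGPTL4 rose in somatic cells with (log2 fold change 2.93 ± 0.27 SE, adjusted p = 4.06e-07) and without ActA (log2 fold change 2.43 ± 0.26 SE, adjusted p = 1.63e-06), and the nuclear receptor gene RORA in cjPGCLCs without ActA (log2 fold change 3.59 ± 0.36 SE, adjusted p = 9.77e-07).

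Some hypoxia genes fell. LOX fell from 1419 and 1636 in pre-ME with ActA to 243 and 198 in cjPGCLCs (log2 fold change −2.78 ± 0.35 SE, adjusted p = 8.92e-06) and 122 and 131 in somatic cells (log2 fold change −3.59 ± 0.38 SE, adjusted p = 1.44e-06), and from 744 and 872 to 166 and 140.3 (log2 fold change −2.39 ± 0.35 SE, adjusted p = 5.53e-05) and 94.6 and 82.00 (log2 fold change −3.23 ± 0.40 SE, adjusted p = 8.1e-06) without ActA. AK4, a mitochondrial adenylate kinase, fell in all 4, most in somatic cells without ActA, from 600.1 and 686 to 11.5 and 4.64 (log2 fold change −6.44 ± 0.54 SE, adjusted p = 1.3e-07). BHLHE40 fell with ActA in cjPGCLCs (log2 fold change −2.94 ± 0.32 SE, adjusted p = 2.04e-06) and somatic cells (log2 fold change −4.0001 ± 0.37 SE, adjusted p = 3.53e-07). FBP1 fell without ActA from 33.6 and 59.4 to 3.8 and 1.58 in cjPGCLCs (log2 fold change −3.89 ± 0.62 SE, adjusted p = 0.000114) and to 0 and 1.55, below 3 counts, in somatic cells.

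The cjPGCLCs were last compared with the somatic cells of the same protocol. VEGFA was higher in cjPGCLCs under both protocols, and without ActA so were ENO2, SLC2A1, BNIP3 and SLC16A1. With ActA, 1 member was higher and 0 lower (background 3.68% and 1.16%), and 0 were lower at an unadjusted p under 0.05 or by DESeq2. Without ActA, 5 were higher and 0 lower (background 6.67% and 2.96%), where 2 were lower at an unadjusted p under 0.05 and 0 by DESeq2. When only the libraries of a comparison were fitted, 5 were higher and 1 lower with ActA, and 9 and 2 without. With no filter on low counts, 9 were higher and 1 lower without ActA, and 5 and 0 with it. VEGFA had 982 and 1449 in cjPGCLCs and 666 and 531 in somatic cells with ActA (log2 fold change 1.03 ± 0.25 SE, adjusted p = 0.0245), and 2331 and 3026 and 491 and 489 without (log2 fold change 2.47 ± 0.26 SE, adjusted p = 1.24e-05). ENO2 had 219 and 203 and 41.5 and 29.4 without ActA (log2 fold change 2.62 ± 0.44 SE, adjusted p = 0.00091) and 91.3 and 72.5 and 30.1 and 35.8 with ActA (log2 fold change 1.33 ± 0.46 SE, adjusted p = 0.124), where it was not called. In all 4 of these the lower cjPGCLC library was above the higher somatic one.

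SLC2A1 had 1366 and 1149 in cjPGCLCs and 821 and 767 in somatic cells without ActA (log2 fold change 0.68 ± 0.14 SE, adjusted p = 0.00375). BNIP3 had 1010.1 and 971 and 623 and 633 (log2 fold change 0.68 ± 0.19 SE, adjusted p = 0.0351), and SLC16A1 2794 and 3201 and 2274 and 2068 (log2 fold change 0.48 ± 0.14 SE, adjusted p = 0.0431). These were small differences with groups that did not overlap. BNIP3 did not pass when any 1 library was left out (for example log2 fold change 0.69, adjusted p = 0.18 without replicate 2 of the somatic cells), and SLC2A1 did not without that library (log2 fold change 0.63, adjusted p = 0.0696) or replicate 1 of the cjPGCLCs (log2 fold change 0.54, adjusted p = 0.0833). SLC16A1 did not pass with DESeq2's size factors, total-count scaling or a replicate block. VEGFA with ActA did not pass without replicate 1 (log2 fold change 1.2001, adjusted p = 0.0815) or replicate 2 (log2 fold change 0.88, adjusted p = 0.295) of the somatic cells or replicate 2 of the cjPGCLCs (log2 fold change 0.72, adjusted p = 0.237).

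PFKP had 1769.8 and 1554 in cjPGCLCs and 1052 and 1087 in somatic cells with ActA (log2 fold change 0.65 ± 0.22 SE, adjusted p = 0.121), and 1078 and 1146 and 632 and 820.0 without (log2 fold change 0.63 ± 0.23 SE, adjusted p = 0.0991), higher in both cjPGCLC libraries but not called. The triose phase genes other than ENO2 had log2 differences of −0.11 to 0.06 and were not called, and the 17 glycolysis genes had a median of 0.06 with and −0.07 without ActA. The 10 hypoxia genes had medians of 0.18 and 0.30. An interaction of the sort with ActA was called for 0 members (background 0.0253% higher and 0.038% lower) by edgeR, with 1 higher and 3 lower at an unadjusted p under 0.05, and DESeq2 called 1, VEGFA, whose interaction by edgeR was −1.43 (adjusted p = 0.191).

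Other pathway genes beyond a log2 fold change of 2 were HKDC1 and AK4. HKDC1 had 28.7 and 14.2 in cjPGCLCs and 1.77 and 0 in somatic cells with ActA, and 29.6 and 31.5 and 0 and 0 without. AK4 had 78.6 and 34.1 and 17.7 and 5.96 with ActA (log2 fold change 2.37 ± 0.57 SE, adjusted p = 0.0225) and 153 and 67.8 and 11.5 and 4.64 without (log2 fold change 3.94 ± 0.60 SE, adjusted p = 0.000353). The endoderm genes FOXA2 and FOXA1 moved with these differences, with a sum of 83.9 to 196 and 362 to 535 in cjPGCLCs with and without ActA and of 0 to 1.49 and 0 to 4.61 in somatic cells, where 1 of the 2 had 0 counts. Their part in the higher VEGFA, ENO2 and HKDC1 of the cjPGCLCs was not tested.

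Over all 10 conditions, ADM had the widest range of the members, with a mean in somatic cells without ActA 73.2 times that in TESR pre-ME without ActA. VEGFA, PFKP, EPAS1 and SLC16A3 followed with ratios of 27.5, 27.2, 21.5 and 19.4 between the highest and the lowest mean. PFKL varied least, with a ratio of 1.39, followed by P4HA1 with 1.57 and PFKM with 1.60. Of the 17 glycolysis genes, 10 had their highest mean in cjiPSCs in cjPSCM. Part of this rested on replicate 1 of cjPSCM. Replicate 2 was below a TESR cjiPSC library for ALDOA, GAPDH, PGK1, PGAM1, ENO1 and PKM, with 25364 against 30212.5 in GAPDH. It was above both TESR cjiPSC libraries for HK1, GPI, PFKP and TPI1. The lowest mean of GPI, ALDOA, ALDOC, TPI1, GAPDH, PGK1, PGAM1 and ENO1 was in cjPGCLCs without ActA.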

How the data were processed

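Poly(A) libraries of 20 samples were analysed, grouped by the sample labels. For the sorted cells the sample titles name INTa6 and EpCAM, their characteristics CXCR4 and EpCAM, and the study's methods CXCR4 and INTα6. Per the labels and methods, the authors checked paired-end reads with FastQC 0.11.8, mapped them with STAR 2.7.0a to calJac4, counted them per gene with HTSeq 0.11 and deposited these raw counts. They also deposited counts divided by DESeq2 size factors, a normalised signal used here for levels. The annotation release, the strand setting and the treatment of multimapping reads are not given in the sources used here. GAPDH, PGK1, LDHA, ENO1, PKM and other glycolysis genes have processed copies that could take or lose reads, so their absolute levels are uncertain, as are genes overlapped by antisense transcripts. The 2 summary lines of the counting (reads outside genes, 10.6% to 23.2%, and ambiguous reads, 0.268% to 0.350%) were left out of library sizes and tests.

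For the tests, a model with a coefficient for each condition was fitted to the counts of all 20 libraries (edgeR 4.0.16 under R 4.3.3, TMM scaling, common dispersion 0.0203), and the quasi-likelihood F-test had 10 residual degrees of freedom. edgeR's filter by condition left 15797 genes, and each comparison had its p-values adjusted over all of these (Benjamini-Hochberg). Comparisons were 13 pairs of conditions and 3 interactions, and a further interaction of ActA and medium was added after values had been seen. Total counts of 4784964 to 22067099 per library make 3 counts equal to 1.40 to 6.92 normalised counts, a floor for counting error only. Alternatives were DESeq2 1.42.0, its size factors or total counts in place of TMM, no filter, the libraries of a comparison only, a replicate block, and each library left out in turn. Scripts were tested on simulated data first. Tables and plots used Python 3.11.15, pandas 2.3.3 and matplotlib 3.10.9. Sequences were not used here.

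The members and lists were chosen with earlier results of these data known. All members were counted by role. Values in every library were given for the called members with the largest change, up to 4 each way per comparison, isozymes were set side by side whatever they did, and other pathway genes were named, up to 3 each way, only where called with a log2 fold change beyond 2. Further members named beside these, and the marker genes PECAM1, CDH5, GATA6, KDR, COL3A1, TRIB3 and ASNS, were picked with their values in view. The labels call replicates biological without naming separate cultures for each, so p-values measure the spread between these samples.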

Additional observations from a re-analysis of the deposited data

Results flagged for a closer look

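The change from cjiPSCs to pre-ME differed between the media by a test of the difference itself (edgeR interaction, cjPSCM minus TESR) for 5 members. With ActA the interaction was −2.35 on the log2 scale for ADM (adjusted p = 0.0099), which went from 68.3 and 112 to 91.9 and 59.4 normalised counts in TESR and from 784 and 424 to 113 and 94.1 in cjPSCM, and it was 1.501 for VEGFA (adjusted p = 0.0314), which went from 239 and 451 to 316 and 278 and from 73.5 and 122 to 263 and 208. For PFKFB3 it was −1.03 under ActA (adjusted p = 0.00265) and, in its absence, −1.24 (adjusted p = 0.000741), and for PFKFB4 −1.42 (adjusted p = 0.0415) and −1.62 (adjusted p = 0.0178). PFKFB4 went from 39.1 and 35.7 to 85.4 and 72.7 with and 119 and 105 without ActA in TESR, and from 54.6 and 122 to 72.6 and 58.98 and 81.9 and 79.3 in cjPSCM. Without ActA the interaction was 0.86 for SLC16A1 (adjusted p = 0.0161), which went from 4102 and 3772 to 4616 and 4046 in TESR and from 2201 and 2566 to 4562 and 4808 in cjPSCM. Without 1 library the ADM interaction did not pass when replicate 1 of TESR pre-ME was missing (log2 fold change −2.004, adjusted p = 0.066), and those of VEGFA, PFKFB4 and SLC16A1 were lost by 5, 7 (with ActA) and 3 of the possible omissions, for example replicate 2 of TESR cjiPSCs for VEGFA (log2 fold change 1.03, adjusted p = 0.114), replicate 2 of cjPSCM cjiPSCs for PFKFB4 (log2 fold change −0.78, adjusted p = 0.11) and replicate 2 of TESR pre-ME for SLC16A1 (log2 fold change 0.79, adjusted p = 0.0915). PFKFB4 without ActA was lost by 4 omissions, and PFKFB3 passed under all of them. PFKFB4 with ActA also did not pass with total-count scaling or a replicate block.

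The effect of ActA on pre-ME differed between the media for ADM, with an interaction of −3.03 (adjusted p = 0.0173). It did not pass in 6 of the 8 fits that left out 1 library, and the weakest of these was without replicate 1 of TESR pre-ME with ActA (log2 fold change −2.68, adjusted p = 0.144).

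In 5 cases, both day 4 libraries lay on one side of the pre-ME with ActA and on the other side without it, and this difference was not tested. The log2 fold change with ActA exceeded that without by 1.41 for ALDOC and 0.92 for PDK3 in cjPGCLCs and by 0.86 for PDK3 in somatic cells. It was lower with ActA by −0.42 for HK1 and −0.54 for PFKL in somatic cells. PDK3 had 127 and 114 in pre-ME and 153 and 139 in cjPGCLCs with ActA, and 213 and 224 and 144 and 139 without, while the pre-ME themselves differed (log2 fold change −0.87 ± 0.18 SE, adjusted p = 0.00445).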

How the results depend on the processing

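No called member changed sign under another scaling, filter, tool or fit, nor when 1 library was left out, among the 96 combinations of a member and a comparison followed here, where 896 alternative fits kept the call and 118 lost it. The 4 comparisons of day 4 cells with pre-ME had 18 to 29 calls in all these fits, new calls included. Fitting only the libraries of a comparison gave 6 calls in place of 17 for the media, 1 in place of 7 and 5 in place of 19 for cjPSCM induction with and without ActA, 0 in place of 4 and 3 for the interactions of induction and medium, and 15 in place of 5, 6 in place of 1, 11 in place of 5, 1 in place of 0 and 11 in place of 1 for ActA in TESR, the sort with and without ActA, the sort by ActA and ActA by medium. Without a filter the counts were 9, 5, 10, 1 and 5 for these last 5 and 7 for the induction by medium with ActA. DESeq2 gave 11 for cjPSCM induction with ActA, 1 for the sort by ActA and 2 for ActA by medium. The causes were not tested. With 1 library left out the counts ranged from 14 to 25 for the media, 7 to 12 and 11 to 18 for TESR induction with and without ActA, 3 to 21 and 14 to 25 for cjPSCM, 1 to 3 and 3 to 10 for ActA in TESR and cjPSCM, 0 to 1 and 2 to 4 for the sort with and without ActA, 1 to 10 and 1 to 9 for induction by medium with and without ActA, and 0 to 1 for ActA by medium. A group with a lone library is then assumed to vary like the others. Total-count scaling moved the median of all genes to between −0.17 and 0.28, against −0.03 to 0.04 with TMM.

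The replicate numbers are given by the labels without a shared batch, and deviations of same-numbered libraries correlated at −0.204 to 0.253. With the replicate block the counts were 18 for the media, 16 and 19 for TESR induction with and without ActA, 7 and 20 for cjPSCM, 6 and 13 for ActA in TESR and cjPSCM, 25 and 26 for cjPGCLCs, 24 and 26 for somatic cells, 1 and 4 for the sort and 3 and 3 for the interactions of induction and medium. The block lost the calls of SLC16A1 in the sort without ActA and of PFKFB4 in the interaction of induction and medium with ActA. Crossed pairing (chosen after seeing the data) gave 7 and 19 calls for cjPSCM induction with and without ActA and 26 for somatic cells without ActA.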
